A study of Mus musculus with 4 samples.

Results

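Radial glia and astrocytes are recognised by a small set of genes, and 10 of them, *Fabp7*, *Slc1a3*, *Slc1a2*, *Nes*, *Vim*, *Glul*, *Ptprz1*, *Gfap*, *Aldoc* and *S100b*, were followed in single cells of 4 mouse neural stem cell (NSC) lines. They were chosen as a named list of marker genes and are 10 of the 17834 genes listed in the normalized table of at least 1 line. The normalized tables of XN1 and CN4 list all 10, that of KN1 lists 8 and that of XN4 lists 7. The lines were derived from epiblast stem cells (EpiSCs) of strain 129/Sv, cultures that resemble the postimplantation epiblast, and all 4 were grown with the growth factors EGF and FGF2, each at 10 ng/ml. XN4 and XN1 were in addition grown with 10 µM XAV939 (XAV), an antagonist of Wnt signaling, and the XAV came from a different supplier for each of these lines (supplier B for XN4 and supplier A for XN1). The authors report that XAV from supplier A formed crystals in the medium, unlike that from supplier B. They state that this must have lowered its effective concentration for XN1. KN1 received no further addition, and CN4 was grown with 2 µM CHIR99021 (CHIR), a Wnt agonist. Each line is 1 culture and was sequenced as 1 library, so a line, its treatment and its library cannot be told apart, no difference between lines can be tested, and every interval below covers counting error at most.

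Radial glia are the stem cells of the embryonic neural tube. They carry the intermediate filament proteins nestin and vimentin, take up glutamate, bind fatty acids through a brain-type binding protein, and later give rise to neurons, astrocytes and oligodendrocytes. Astrocytes keep several of these genes on and add others, such as the filament protein GFAP, as they mature. Among the 10 genes, *Nes* and *Vim* belong to the cytoskeleton, *Slc1a3*, *Slc1a2* and *Glul* handle glutamate, *Fabp7* and *Ptprz1* mark radial glia, and *Gfap*, *Aldoc* and *S100b* mark astrocytes.

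Levels are given as reads of a gene summed over the cells of a line, per 10000 reads of genes other than ribosomal protein and mitochondrial genes, and a gene counted as captured wherever a cell had 1 or more of its reads. These are reads, not molecules, because the tables hold no molecular identifiers. Several reads can come from 1 molecule, so the intervals of levels, which take reads as independent, can be too narrow. The normalized tables hold 3448 to 3975 cells per line with a median of 4637 to 7796 reads per cell. KN1 stood apart, with a median of 833 captured genes per cell against 2257 to 2824 in the other lines, and 6.99 reads per captured gene against 2.06 to 3.18. After each cell was thinned to 3200 reads, the medians were 765 genes in KN1 and 1650 to 1844 in the others, with 290 to 776 shallower cells per line left out. Between 14 and 21 cell indices were shared by any pair of normalized tables.

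*Sox2* and the mesenchymal markers of the library labelled XN4 went against the NSC label. Other progenitor genes were captured there. Of a list of 27, 14 were in at least 10% of XN4 cells, against 22 in XN1, 15 in KN1 and 25 in CN4. *Sox2*, a transcription factor of neural stem cells, was captured in 0.560% (95% interval 0.351 to 0.847) of XN4 cells, against 62.2% in XN1, 13.9% in KN1 and 83.9% in CN4. The 10 mesenchymal markers reached a summed level of 83.7 in XN4 and 0.0987 to 2.02 in the other lines. Most of it was *Col3a1*, a fibrillar collagen gene captured in 97.8% of XN4 cells. The same gene was captured in 1.23% of KN1 cells and 0.812% of CN4 cells. The normalized table of XN1 does not list it, and its reads-per-cell table had it in 0.228% of cells. The level of *Col3a1* in CN4 was above that in KN1, at a log2 ratio of 3.71, although its share was lower. Whether these reads are background was not tested. The highest of these shares, that of KN1 at own depth, is used below as a cutoff for all 4 lines. Shares of about that size or less are called of background size and are not read as expression, also in thinned cells. This cutoff is a choice, rests on *Col3a1* in KN1 alone, and may hide expression in any of the 4 lines. It gives no measure of background in XN4, where *Col3a1* was in most cells. In XN4, *Fabp7* had 0 reads in 8741 cells. The 8 neuron markers summed to 6.66 in CN4, 17.3 in KN1, 7.83 in XN1 and 0.171 in XN4, with *Dcx* and *Stmn2* not listed in XN4. Most of each sum was *Map2*, at 6.06, 15.9, 7.35 and 0.120 in the same order of lines. The 7 oligodendrocyte precursor markers summed to 18.2 in CN4, 5.48 in KN1, 18.6 in XN1 and 2.54 in XN4, and *Sox10* was not listed in XN4 or KN1. In XN4, *Pdgfra*, which mesenchymal cells also use, made up 2.46 of that sum, and *Olig1* and *Olig2* were not listed. Markers of microglia, ependymal cells and epiblast had summed levels of at most 0.0631, 0.136 and 0.0192, of which the microglial *Cx3cr1* was in 2.57% of XN4 cells and the ependymal *Foxj1* in 5.35% of XN1 cells, and neural crest markers summed to 0.140 to 1.10. The part of these other cell types in the results below was not tested.

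All 10 genes have a promoter entry in RefSeq (GRCm38.p6), and *Aldoc* has a second, which makes 11. The 250 bases before the start are shown for *Fabp7* and *Vim*, the gene with 0 reads and the gene captured in most cells of XN4, and for *Gfap* and *S100b*, which were lowest in dividing cells of XN1 and CN4. They run 5′ to 3′ on the strand of the gene, and capitals mark matches, on either strand, to TATAAA (the TATA box), to CCAAT (the site of the factor NF-Y), to TGGGAA (the core bound by RBPJ, the Notch effector) or to TTCNNNGAA (the STAT site). No marked matches overlap in these windows.
Fabp7: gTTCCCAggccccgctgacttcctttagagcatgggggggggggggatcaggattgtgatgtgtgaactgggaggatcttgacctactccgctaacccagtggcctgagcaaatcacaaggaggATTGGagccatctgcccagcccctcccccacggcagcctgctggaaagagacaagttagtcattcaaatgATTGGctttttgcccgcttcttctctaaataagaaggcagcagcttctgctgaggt
Vim: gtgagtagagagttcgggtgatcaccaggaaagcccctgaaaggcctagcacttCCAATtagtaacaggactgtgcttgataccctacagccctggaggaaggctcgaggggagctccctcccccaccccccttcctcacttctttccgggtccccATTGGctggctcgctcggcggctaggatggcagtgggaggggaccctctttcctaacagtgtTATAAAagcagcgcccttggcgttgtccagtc
Gfap: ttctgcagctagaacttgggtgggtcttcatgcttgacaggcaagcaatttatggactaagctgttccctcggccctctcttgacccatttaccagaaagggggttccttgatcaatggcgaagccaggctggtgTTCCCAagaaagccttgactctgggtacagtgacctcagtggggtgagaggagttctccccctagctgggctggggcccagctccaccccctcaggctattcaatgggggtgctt
S100b: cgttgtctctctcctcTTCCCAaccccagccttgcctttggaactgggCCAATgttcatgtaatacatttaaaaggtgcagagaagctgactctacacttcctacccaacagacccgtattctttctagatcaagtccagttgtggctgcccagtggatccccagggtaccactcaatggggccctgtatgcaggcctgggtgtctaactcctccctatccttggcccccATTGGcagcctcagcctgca
The windows are chr10:57784673-57784922 on the plus strand, chr2:13574061-13574310 on the plus strand, chr11:102897201-102897450 on the minus strand and chr10:76253586-76253835 on the plus strand. The starts are those of RefSeq and can differ from the gene spans given below. By those spans, the *Vim* and *Gfap* windows lie inside the gene, and the *Fabp7* window runs past the first base of its gene. The *Vim* window holds TATAAA at 32 to 27 bases before the start and CCAAT on both strands, and *Fabp7*, *Gfap* and *S100b* each hold TGGGAA on the minus strand. Among the 11 windows, TATAAA matched 2 (*Vim* and *Slc1a3*), CCAAT matched 5, TGGGAA matched 5 and TTCNNNGAA matched 2, against 12.4%, 33.8%, 21.6% and 7.02% of the 32851 promoters in the table. ACAATG, a SOX core, matched none of the 11, against 10.7% of all promoters. These matches describe the letters of the windows and are not binding sites.

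*Nes* encodes nestin, an intermediate filament protein of neural progenitors, and spans chr3:87971078-87980451 (GRCm38, plus strand). Its level was 5.14 in CN4, 6.55 in KN1, 3.72 in XN1 and 0.254 in XN4. The share of capturing cells was 78.8% (77.4 to 80.2) in CN4, 48.1% (46.5 to 49.7) in KN1, 65.5% (64.0 to 67.0) in XN1 and 8.48% (7.63 to 9.40) in XN4. XN4 was thus the low line by both measures, 14.6-fold below XN1, the next in order. KN1 had the highest level but fewer capturing cells than XN1 and CN4, and no order among these 3 lines is read from values that disagree.

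*Vim* encodes vimentin, the filament protein that radial glia share with mesenchymal cells, and spans chr2:13573927-13582826 (plus strand). It was the only 1 of the 10 captured in most XN4 cells, at a level of 13.3 in 84.4% (83.2 to 85.5) of the cells. The level was 22.6 in CN4, 4.87 in KN1 and 16.7 in XN1, where 98.1% (97.6 to 98.5), 40.5% (39.0 to 42.1) and 96.9% (96.3 to 97.4) of cells captured it. KN1 was low on both scales, 2.72-fold below XN4 in level, while CN4, XN1 and XN4 followed each other within 1.36-fold and 1.26-fold. Without *Vim*, the summed level of the listed genes was 1.71 in XN4, against 41.9 in XN1, 62.6 in KN1 and 96.5 in CN4. Of other filament genes, *Synm*, which encodes the vimentin partner synemin, had levels of 0.0418 in CN4, 0.0334 in KN1, 0.283 in XN1 and 0.0970 in XN4, and *Ina*, the neuronal filament α-internexin, 0.106, 0.154, 0.0322 and 0.0161 in the same order.

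*Slc1a3* encodes GLAST, the glutamate and aspartate transporter that appears first in radial glia. It spans chr15:8634124-8710764 (minus strand), 76.6 kb, and overlaps *Gm37310* on the same strand. Its level was 25.5 in CN4, 27.2 in KN1, 9.22 in XN1 and 0.639 in XN4. The share of capturing cells was 96.5% (95.8 to 97.1) in CN4, 79.9% (78.6 to 81.2) in KN1, 91.0% (90.02 to 91.8) in XN1 and 22.2% (20.9 to 23.5) in XN4. KN1 and CN4 differed by 1.07-fold in level, and their capturing shares were in the opposite order. XN4 was 14.4-fold below XN1, the next in order.

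*Slc1a2* encodes GLT-1, the glutamate transporter of more mature astrocytes, and spans chr2:102658659-102790784 (plus strand), 132.1 kb, with a non-coding gene on the opposite strand inside it. Its level was 2.27 (2.21 to 2.33) in CN4 and 1.27 (1.22 to 1.32) in XN1, where 49.1% (47.4 to 50.8) and 33.8% (32.3 to 35.3) of cells captured it. In KN1 the level was 0.0958 (0.0846 to 0.108), in 1.28% (0.957 to 1.68) of cells. In XN4 it was 0.0159 (0.0123 to 0.0202), in 0.840% (0.579 to 1.18) of cells. The shares in KN1 and XN4 are of background size by the *Col3a1* cutoff and are not read as expression. The cutoff does not weigh reads per cell. The 51 capturing KN1 cells held 5.18 reads each on average, and 35.3% of them held a single read. Whether a few KN1 cells express *Slc1a2* was not tested.

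*Glul* encodes glutamine synthetase, which turns the glutamate taken up by astrocytes into glutamine, and spans chr1:153899944-153909723 (plus strand), overlapping *Teddm2* on the opposite strand. Its level was 6.03 in CN4, 2.59 in KN1, 4.45 in XN1 and 0.721 in XN4. The capturing shares were 78.2% (76.8 to 79.6), 26.9% (25.6 to 28.4), 71.4% (70.0 to 72.9) and 27.7% (26.3 to 29.2), in the same order of lines. XN4 and KN1 had almost the same share of capturing cells, yet a 3.59-fold difference in level. At 3200 reads per cell the shares in these lines were 14.3% and 24.0%. Of other genes of glutamate handling, *Glud1*, which encodes glutamate dehydrogenase, had levels of 4.12 in CN4, 0.784 in KN1, 1.67 in XN1 and 1.61 in XN4. *Slc1a5*, a neutral amino acid transporter of the same family as the glutamate transporters, was highest in XN4 at 1.41, against 0.275 in XN1, 0.306 in KN1 and 0.234 in CN4.

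*Fabp7* encodes the brain lipid-binding protein of radial glia and spans chr10:57784881-57788450 (plus strand), 3.57 kb. It gave the sharpest contrast of the 10. In CN4 its level was 41.2 in 98.3% (97.8 to 98.7) of cells, in XN1 11.4 in 84.6% (83.4 to 85.7), and in KN1 3.86 in 29.0% (27.6 to 30.4). The normalized table of XN4 does not list it, and the reads-per-cell table held 0 reads in 8741 cells. This allows a share of capturing cells of up to 0.0343% when the limit is set at 3 cells, and does not limit expression too low to be captured. Against a floor of 3 reads over the XN4 table, the level was at least 37714-fold lower than in the reads-per-cell table of XN1 and 142299-fold lower than in that of CN4. Against the normalized table of KN1 it was at least 12789-fold lower. The floor is a choice and takes reads as independent, so these folds can be too large. The related *Fabp5*, a fatty acid binding protein of neural progenitors and of skin, was present in all 4 lines, at 4.48 in CN4, 1.56 in KN1, 8.62 in XN1 and 0.630 in XN4.

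*Ptprz1* encodes a receptor tyrosine phosphatase of radial glia and of the oligodendrocyte lineage, and spans chr6:22875502-23052916 (plus strand), at 177.4 kb the longest of the 10. Its level was 13.2 in CN4, 20.6 in KN1, 10.2 in XN1 and 0.0619 (0.0545 to 0.0699) in XN4. The capturing cells made up 97.3% (96.7 to 97.8) of CN4, 78.2% (76.9 to 79.5) of KN1, 93.1% (92.2 to 93.9) of XN1 and 2.22% (1.78 to 2.73) of XN4. XN4 was 166-fold below XN1, while the other 3 lines lay within 1.29-fold and 1.56-fold of the next, with KN1 highest in level and lowest in share among them. Both secreted ligands of this receptor were present in XN4. *Ptn*, pleiotrophin, had levels of 51.4 in CN4, 3.44 in KN1, 15.4 in XN1 and 8.28 in XN4, and *Mdk*, midkine, 3.94, 2.07, 4.36 and 13.9.

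*Gfap* encodes the filament protein of mature astrocytes and spans chr11:102887336-102900912 (minus strand), overlapping the non-coding *Gm26668* on the opposite strand. Its level was 0.135 (0.119 to 0.152) in XN1 and 0.161 (0.145 to 0.179) in CN4. It was captured in 3.20% (2.67 to 3.80) of XN1 cells and 3.80% (3.19 to 4.49) of CN4 cells, and 57.6% and 54.2% of those cells held a single read. It is not listed in XN4 or KN1. In the reads-per-cell tables XN4 held 16 reads in 0.103% (0.0471 to 0.195) of cells, below the background size, so no fold is given.

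*Aldoc* encodes aldolase C, the brain form of a glycolytic enzyme and a marker of astrocytes, and spans chr11:78322968-78327781 (plus strand). Its level was 1.27 in XN1, 1.69 in KN1 and 2.70 in CN4, in 31.7% (30.2 to 33.1), 19.1% (17.9 to 20.4) and 55.2% (53.5 to 56.9) of cells. CN4 was highest on both scales, and the order of XN1 and KN1 differed between level and share. In XN4, where it is not listed, the reads-per-cell table held 47 reads in 0.286% (0.185 to 0.422) of cells, below the background size, so no fold is given. The ubiquitous *Aldoa* had levels of 9.48 in CN4, 3.62 in KN1, 9.52 in XN1 and 5.72 in XN4.

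*S100b* encodes a calcium-binding protein of astrocytes and spans chr10:76253853-76261159 (plus strand), overlapping *Dip2a* on the opposite strand. Its level was 0.266 (0.243 to 0.290) in XN1 and 0.283 (0.261 to 0.305) in CN4, in 9.37% (8.48 to 10.3) and 11.2% (10.2 to 12.3) of cells. In XN4 the level was 0.0178 (0.0140 to 0.0224) in 0.764% (0.516 to 1.09) of cells, which is of background size, and KN1 does not list the gene. Another member of the S100 family, *S100a6*, had the reverse pattern, with 3.40 in XN4 against 0.0374 in XN1, 0.0123 in KN1 and 0.0732 in CN4.

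**Figure D1:**
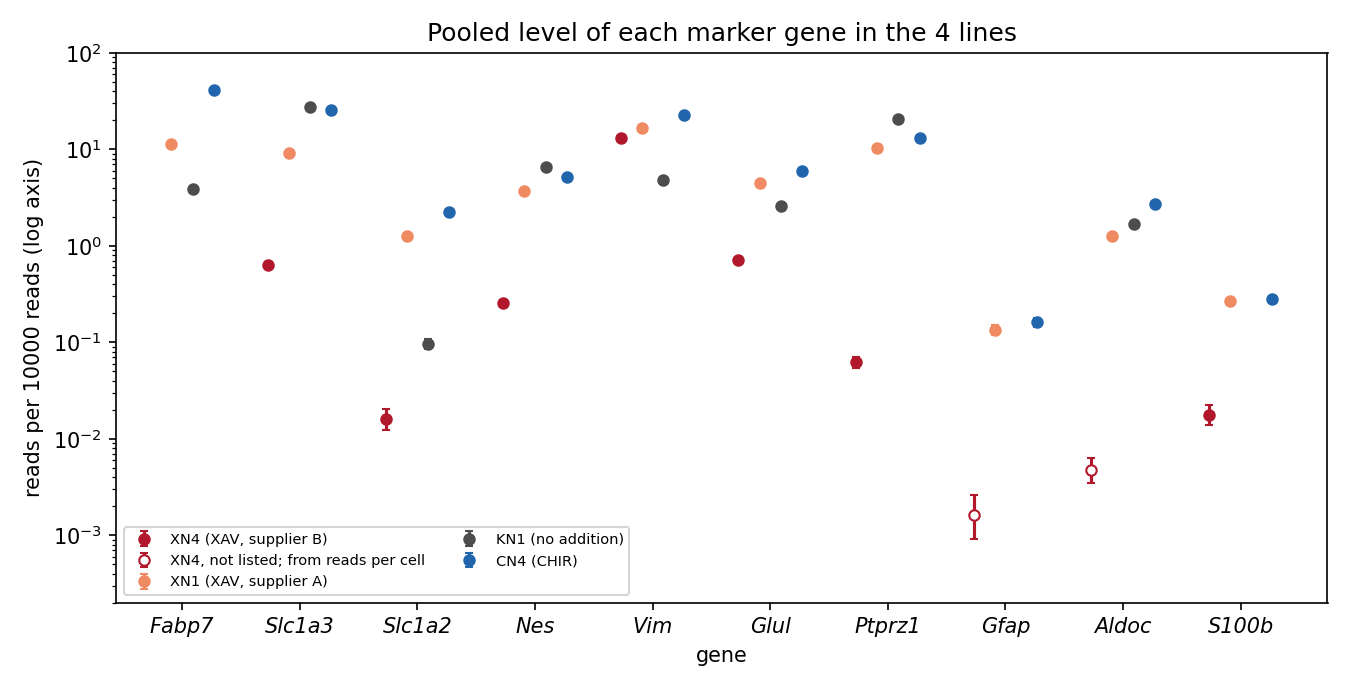
Pooled level of each gene in each line, in reads per 10000 reads on a log axis. Filled points are from the normalized tables, open points are XN4 genes taken from its reads-per-cell table, and bars are exact Poisson 95% intervals. A gene with no point in a line is not listed there (*Gfap* and *S100b* in KN1) or had 0 reads (*Fabp7* in XN4). Among the plotted points XN4 lies lowest for every gene it has a point for except *Vim*.

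Shares were also taken with each cell thinned to the same 3200 reads, which at the same time leaves out the shallower cells. *Fabp7* was captured in 98.2% (97.7 to 98.6) of thinned CN4 cells, 83.7% (82.4 to 85.0) of XN1 cells and 27.2% (25.7 to 28.7) of KN1 cells. *Ptprz1* was captured in 93.9% (93.0 to 94.7), 90.3% (89.2 to 91.3) and 77.8% (76.3 to 79.2) of the same lines and in 1.03% (0.721 to 1.44) of XN4 cells, the last now of background size. In CN4, *Aldoc* went from 55.2% of cells at their own depth to 40.0% (38.2 to 41.7) of thinned cells, and *Slc1a2* from 49.1% to 35.1% (33.5 to 36.8). In XN4, *Slc1a3* went from 22.2% to 12.4% and *Nes* from 8.48% to 4.76%. Shares in KN1 moved little, from 79.9% to 80.2% (78.8 to 81.5) for *Slc1a3* and from 26.9% to 24.0% (22.6 to 25.5) for *Glul*. Requiring 2 reads in place of 1 moved all 35 shares below their intervals, in XN1 from 9.37% to 2.61% for *S100b* and from 3.20% to 1.36% for *Gfap*.

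**Figure D2:**
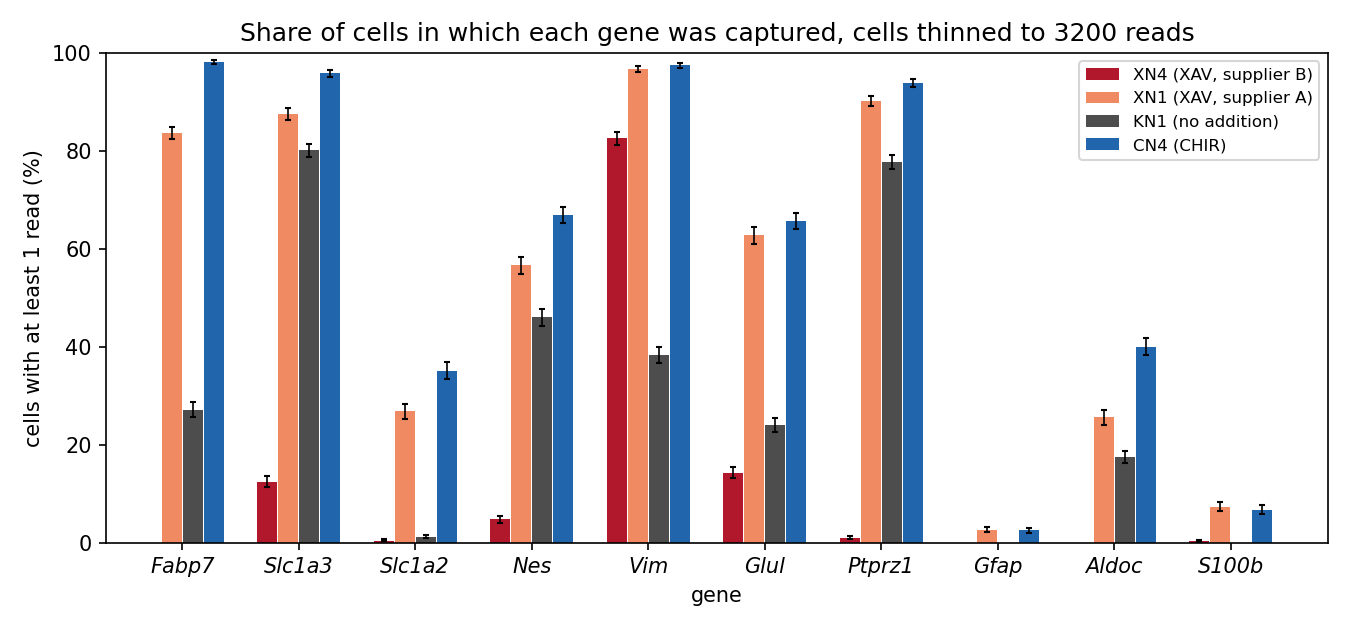
Share of cells with at least 1 read of each gene after every cell was thinned to 3200 reads, with exact 95% binomial intervals. A missing bar is a gene the line does not list. Shares in CN4 run from 2.47% for *Gfap* to 98.2% for *Fabp7*, and *Vim* at 82.6% is the only tall XN4 bar.

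The number of the 10 genes captured together in a cell separated the lines further. Thinned CN4 cells held a mean of 6.02 ± 1.18 (SD over 3158 cells of 1 library) of the 10 and XN1 cells 5.40 ± 1.21 (3129 cells). KN1 cells held 3.12 ± 1.28 (3396 cells) and XN4 cells 1.16 ± 0.664 (3384 cells). At least 5 of the 10 were captured in 91.5% of CN4 cells, 78.5% of XN1 cells, 13.9% of KN1 cells and no thinned XN4 cell, while none of the 10 was captured in 12.0% of XN4 cells and 1.15% of KN1 cells. The tables of KN1 and XN4 list 8 and 7 of the 10, so a gene that is not listed could not be counted there. The lower number in KN1 also went with its lower number of captured genes of any kind.

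**Figure D3:**
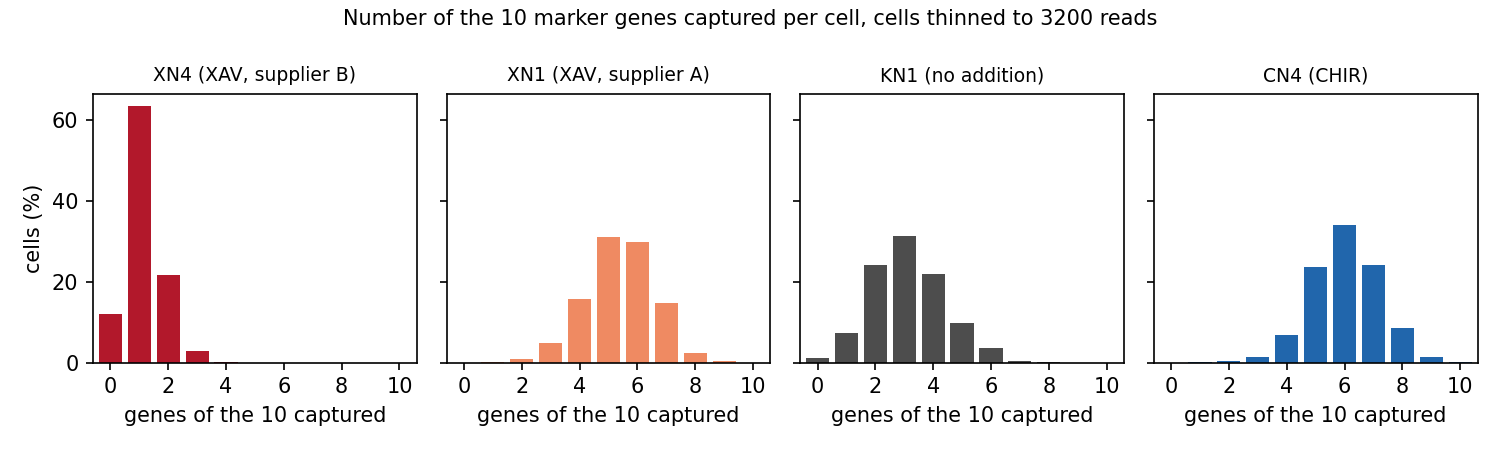
Percent of thinned cells (vertical axis) by the number of the 10 genes captured in the cell (horizontal axis), one panel per line. The XN4 cells crowd at 1 gene (63.4% of cells), KN1 cells at about 3, XN1 cells at 5 and 6, and CN4 cells at 5 to 7.

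Between lines, a gene was counted as higher or lower when its levels differed at least 2-fold, among genes listed in both tables and captured in at least 1% of the cells of either line. The comparisons against KN1 share that library, and their values are given side by side only. In XN4 against KN1, 1 of 6 testable genes was higher (*Vim*, log2 ratio 1.44) where 22.3% of 11919 genes were. The other 5 were lower, from -1.84 for *Glul* to -8.38 for *Ptprz1*, where 21.6% of all genes were lower. *Slc1a2* was 1 of these 5 and was at a background share in both lines, and with a minimum of 5% of cells 4 were lower. The median log2 ratio of the 6 was -3.64, against 0.06 over all genes. In XN1 against KN1, 3 of 8 were higher (*Slc1a2* at 3.72, *Vim* at 1.78 and *Fabp7* at 1.56), where 23% of 11629 genes were. Another 2 were lower (*Slc1a3* at -1.56 and *Ptprz1* at -1.01), where 23.8% were, and the median of the 8 was 0.18 against 0.02. Both of these fell short of 2-fold when natural-log values were averaged over cells, at -0.82 and -0.24. In CN4 against KN1, 4 of 8 were higher (*Slc1a2* at 4.56, *Fabp7* at 3.42, *Vim* at 2.22 and *Glul* at 1.22), where 21.4% of 11868 genes were, and none was lower, where 20.6% were. The median of these 8 was 0.95 against 0.09. The *Slc1a2* ratios are set against a KN1 level that came from 1.28% of cells, a share of background size. When a gene had to be in at least 1% of the cells of both lines, a setting chosen after the data were seen, XN4 against KN1 had 1 of 5 higher and 4 lower, where 18.4% and 20.5% of all genes were. The counts for XN1 and CN4 were then as before, where 20.1% and 23.1% of all genes were higher and lower in XN1 and 19.2% and 20.2% in CN4.

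The XAV lines from different suppliers were far apart. In XN4 against XN1, 6 of 7 testable genes were lower, where 13.8% of 12495 genes were, and none was higher, where 17.5% were. The median of all genes was itself shifted to 0.12 on the log2 scale. Relative to that median gene, the log2 ratios were -7.49 for *Ptprz1*, -6.43 for *Slc1a2*, -4.01 for *S100b*, -3.99 for *Nes*, -3.97 for *Slc1a3* and -2.74 for *Glul*. *Slc1a2* and *S100b* entered only through XN1, their XN4 shares being of background size, and among genes in at least 1% of the cells of both lines 4 of 5 were lower, where 11.5% of all genes were, and none higher, where 14.2% were. *Vim* was at -0.45 and did not reach the 2-fold limit. With natural-log values averaged over cells, its log2 ratio went from -0.33 to -1.10, neither taken relative to the median gene, and all 7 genes were then lower, where 15.2% of all genes were, and none higher, where 20% were. *Fabp7*, *Gfap* and *Aldoc*, which XN4 does not list, could not enter this count and were given above from the reads-per-cell tables.

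The comparisons against KN1 depended on how a level was formed. When the natural-log values were averaged over cells, so that each cell weighed the same, XN4 against KN1 had 6286 genes higher and 1241 lower, in place of 2654 and 2571. XN1 had 5913 and 1230 in place of 2669 and 2764, and CN4 had 6756 and 952 in place of 2541 and 2443. On that scale the ratios of *Slc1a3*, *Nes* and *Ptprz1* in CN4 against KN1 changed from -0.09, -0.35 and -0.64 to 0.65, 0.59 and 0.23. The ratios of *Nes* and *Aldoc* in XN1 against KN1 changed sign too, from -0.81 and -0.41 to 0.02 and 0.41. *Glul* in XN1 and *Aldoc* in CN4 passed 2-fold against KN1 on that scale only, at 1.86 and 1.64. No direction is given for the 5 ratios that changed sign, whereas those of *Fabp7*, *Vim* and *Slc1a2* kept their direction and their place past 2-fold.

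Ratios against KN1 also moved with the length of a gene on the chromosome. Over all genes, the median log2 ratio of CN4 against KN1 was 0.59 for 460 genes spanning under 3 kb, 0.53 at 3 to 10 kb, 0.37 at 10 to 30 kb, -0.01 at 30 to 100 kb and -1.22 for 2140 genes over 100 kb. In XN1 against KN1 the shortest and longest classes were at 0.60 and -1.30, and in XN4 against KN1 at 0.57 and -1.04. Between XN4 and XN1 they were at 0.10 and 0.27. Of the genes listed in both tables, *Fabp7*, *Vim* and *Nes* span 3.57, 8.90 and 9.37 kb, and *Slc1a3*, *Slc1a2* and *Ptprz1* span 76.6, 132.1 and 177.4 kb. In XN4 against KN1, 35.4% of genes under 3 kb were at least 2-fold higher and 11.3% lower. Over 100 kb, 11.3% were higher and 51.0% lower. The part of gene length in the member ratios, and in the comparisons of gene lists with KN1 below, was not tested.

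**Figure D4:**
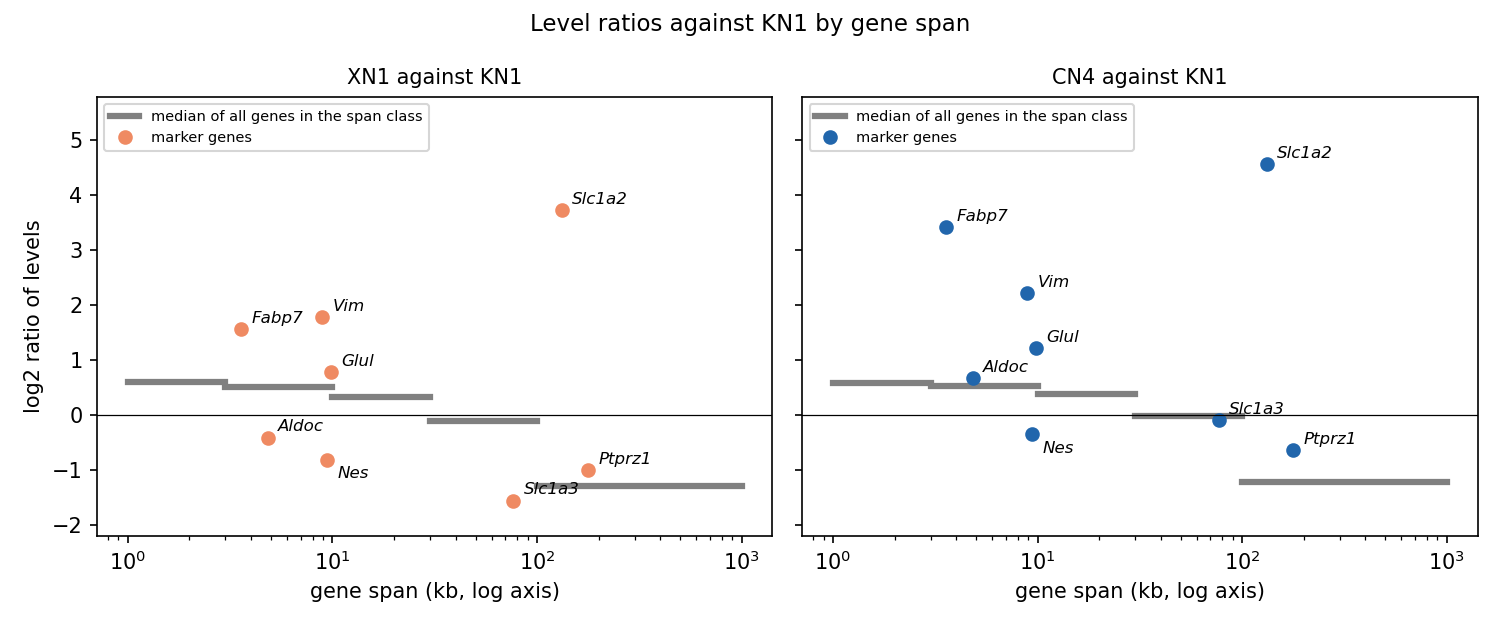
Log2 ratio of levels against KN1 (vertical axis) by the span of the gene in kb on a log axis, for XN1 (left) and CN4 (right). Coloured points are 8 of the marker genes, and grey bars are medians of all genes in a span class, falling from 0.59 to -1.22 in CN4. The outermost bars stand for all genes under 3 kb and over 100 kb.

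Within a line, cells with reads of at least 2 of *Hmgb2*, *Mki67* and *Top2a*, genes of the G2 and M phases, were taken as dividing and compared with cells that had reads of none of them, all thinned to 3200 reads. The dividing share was 55.5% in CN4, 24.9% in KN1, 26.2% in XN1 and 22.1% in XN4. *S100b* and *Gfap* were more than 2-fold lower in the dividing cells of both XN1 and CN4. *S100b* had a level of 0.0990 in dividing against 0.403 in other cells of XN1 (4.08-fold lower) and 0.146 against 0.566 in CN4 (3.87-fold lower). In XN4 it went the other way, 4.82-fold higher, on 11 and 6 reads and at shares of background size. *Gfap* was at 0.0533 against 0.207 in XN1 and 0.0855 against 0.208 in CN4, on 14 to 116 reads a group, and its shares of 0.974% and 1.31% of the dividing cells are of background size. *Slc1a2* was at 0.746 against 1.52 in XN1 and 1.68 against 3.06 in CN4. In CN4, *Aldoc* (1.95 against 3.76) and *Glul* (4.57 against 8.47) had levels 1.93-fold and 1.85-fold lower, and in XN1 1.34-fold and 1.26-fold, all short of the 2-fold limit. When all 3 dividing genes were required, both CN4 differences passed it, at log2 ratios of -1.02.

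*Nes* was the only 1 of the 10 with a higher level in the dividing cells of all 4 lines. The difference was 2.78-fold in XN4 (0.402 against 0.145) and 1.36-fold in XN1 (4.34 against 3.20), and smaller in CN4 at 1.18-fold (5.28 against 4.47) and KN1 at 1.10-fold (6.80 against 6.17). *Vim*, *Fabp7* and *Slc1a3* differed by at most 1.34-fold in every line that lists them. By the 2-fold rule, XN1 had 3 of 10 lower (*S100b*, *Gfap* and *Slc1a2*), where 4.6% of genes were, and none higher, where 6.52% were. *Slc1a2* fell short of 2-fold there in unthinned cells, at a log2 ratio of -0.98, which leaves 2 of 10. CN4 had 2 of 10 lower (*S100b* and *Gfap*), where 3.2% were, and none higher, where 4.88% were, and 4 of 10 lower when all 3 dividing genes were required, where 4.56% were. XN4 had 1 of 5 higher (*Nes*), where 6.03% were, and none lower, where 6.14% were. KN1 had 1 of 8 higher (*Slc1a2*), where 5.07% were, and none lower, where 3.9% were. *Slc1a2* there rests on 41 and 30 reads, in 1.77% of dividing and 1.04% of other cells. The first share lies somewhat above the background size and the second within it. Cells are not replicates, so these ratios describe 1 library each.

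**Figure D5:**
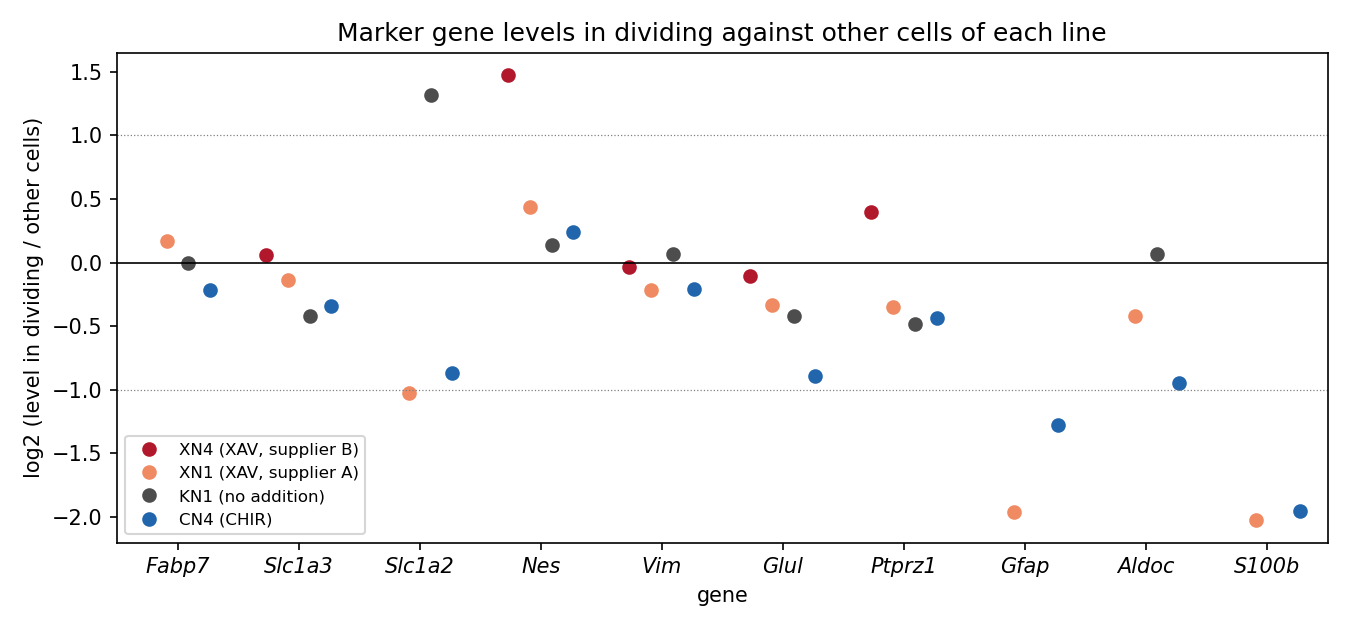
Log2 ratio of each gene's level in dividing over other cells of the same line, after thinning to 3200 reads, for genes captured in at least 1% of thinned cells. Dotted lines mark 2-fold. *S100b* and *Gfap* lie below the lower line in XN1 and CN4, and *Nes* lies above 0 in all 4 lines.

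Genes of the set can be captured in the same cells more or less often than their single shares predict. The predicted number was worked out within 20 groups of cells of like depth and added up, and 124 pairs with at least 20 predicted cells were compared over the 4 lines. The ratio of observed to predicted cells had a median of 1.00. Its counting interval lay above 1 for 13 pairs and below 1 for 3, without allowance for the number of pairs. A ratio cannot pass about 1 divided by the larger share of the pair, so a gene captured in nearly all cells holds its pairs near 1. In CN4, *Fabp7*, *Vim*, *Ptprz1* and *Slc1a3* were captured in 96.5% to 98.3% of cells. Pairs above 1 could therefore be found mainly among the less often captured genes, and the median is partly fixed by the shares. In CN4 all 5 pairs above 1 were among *Slc1a2*, *Gfap*, *Aldoc* and *S100b*. *Slc1a2* and *Gfap* were captured together in 107 cells where 65.0 were predicted, a ratio of 1.65 (1.35 to 1.99), and *Gfap* and *Aldoc* in 105 where 73.4 were predicted, 1.43 (1.17 to 1.73). In XN1 the 3 pairs above 1 were *Slc1a2* with *Gfap* at 1.46 (1.13 to 1.86), *Slc1a2* with *S100b* at 1.32 (1.13 to 1.53) and *Aldoc* with *S100b* at 1.26 (1.07 to 1.47). *Gfap* with *Aldoc* was at 1.30 (0.979 to 1.68) in XN1. *Slc1a2* with *Aldoc*, at 1.13 (1.07 to 1.20) in CN4, was at 0.928 (0.841 to 1.02) in XN1.

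*Nes* was in pairs below 1, with intervals that ended close to 1. It was captured together with *Gfap* in CN4 at a ratio of 0.805 (0.642 to 0.997), and with *S100b* in XN1 at 0.875 (0.764 to 0.998). In the other of these lines the same pairs had intervals that included 1, with *Gfap* in XN1 at 0.915 (0.725 to 1.14) and with *S100b* in CN4 at 0.894 (0.792 to 1.005). The third pair below 1 was *Slc1a3* with *Ptprz1* in XN4, with 13 cells where 23.9 were predicted. In KN1 the 5 pairs above 1 were a different set, all among *Fabp7*, *Vim*, *Glul* and *Aldoc*, with ratios of 1.14 to 1.19, of which *Fabp7* with *Aldoc* was the highest at 1.19 (1.06 to 1.32). *Slc1a3* and *Ptprz1*, the genes captured in most KN1 cells, were together in 2600 cells at a ratio of 1.02 (0.99 to 1.06).

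The genes whose levels followed a member most closely from cell to cell were sought by Pearson's r of the natural-log values over thinned cells, among genes in at least 10% of those cells, and named where r was at least 0.2. These cells share a library, and the r values are descriptions. CN4 had the most followers that reached this limit, 19 of 24 sought. *Slc1a3* went with *Sparcl1* (r = 0.40 over 3158 cells), *Hopx* (0.34) and *Selenop* (0.33), of which *Sparcl1* encodes a secreted astrocyte protein and *Hopx* marks outer radial glia. *Slc1a2* went with *Atp1b2* (0.27), an astrocyte sodium pump subunit, *Fos* (0.26) and *Ednrb* (0.26), and *Glul* with *Sparcl1* (0.30), *Coro2b* (0.26) and *Slc1a3* itself (0.24). *Aldoc* went with *Ttyh1* (0.26), *Fabp7* (0.24) and *Ednrb* (0.24). *Ptprz1* instead went with *Olig1* (0.23), a transcription factor of the oligodendrocyte lineage, and *Lhfpl3* (0.22). *Fabp7* went with *Dbi* (0.38), which binds acyl-CoA, *Ptn* (0.31) and *Fth1* (0.28).

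In the other lines few followers reached 0.2. *Vim* went with the general genes *Eef1a1* (0.40), *Tpt1* (0.34) and *Ptma* (0.29) in XN4 and with *Tmsb4x* in XN1 (0.21) and CN4 (0.26). In XN1, *Fabp7* went with *Tmsb4x* (0.36), *Tpt1* (0.31) and *Actb* (0.30), and *Slc1a2* with *Psap* (0.21) and *Cp* (0.20). In KN1, *Slc1a3* went with *Zeb1* (0.21) and the nuclear RNA *Malat1* (0.21), while *Fabp7* went with *Txn1* (0.24), *Dbi* (0.23) and *Cfl1* (0.21). *Nes* had no follower at 0.2 in XN1, KN1 or CN4 and was captured in too few XN4 cells to be compared there, and its closest was *Tnc*, the tenascin-C gene of progenitors, at 0.19 in CN4 and 0.14 in XN1.

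Other genes of the same cell types were read from lists of 27 progenitor, 26 astrocyte and 10 reactive astrocyte genes. In XN4 against KN1, 3 of 21 testable progenitor genes were at least 2-fold higher and 10 lower, where 22.3% and 21.6% of all genes were, with a median log2 ratio of -0.97 against 0.06 over all genes. The lowest were *Gpm6a* (-9.51), *Pax6* (-6.78) and *Sox2* (-6.54) and the highest *Mfge8* (3.87), *Nfix* (1.13) and *Hopx* (1.08). KN1 lists 5 progenitor genes that XN4 does not, and none of them could be counted as lower in XN4. The XN4 shares of *Gpm6a*, *Pax6* and *Sox2*, at 0.306%, 0.382% and 0.560% of cells, are of background size, so the size of these ratios is not read. These 3 genes passed the minimum only through KN1, and among genes in at least 1% of the cells of both lines 3 of 18 were higher and 7 lower (median -0.80), where 18.4% and 20.5% of all genes were. In CN4 against KN1, 14 of 26 were higher and 3 lower, where 21.4% and 20.6% of all genes were, with a median of 1.09 against 0.09. *Hopx* (4.82), *Sox1* (4.77, against a KN1 share of background size) and *Ednrb* (3.51) led, and *Tnc* (-1.63), *Nfia* (-1.17) and *Zeb2* (-1.11) were lowest. In XN1 against KN1, 7 of 25 were higher and 8 lower, near the 23% and 23.8% of all genes, with a median of 0.43 against 0.02, between *Ednrb* (2.94), *Mfge8* (2.72) and *Fabp5* (2.47) and *Hes5* (-2.45), *Tnc* (-2.04) and *Nfib* (-1.47).

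The comparisons of the astrocyte list with KN1 also share that library. As for the progenitor list, the shares of all genes set beside them make no allowance for gene length. In XN4, 9 of 15 testable genes were higher and 3 lower (median 1.42), where 22.3% and 21.6% of all genes were (median 0.06). In XN1, 12 of 21 were higher and 3 lower (median 1.55), where 23% and 23.8% were (median 0.02). In CN4, 15 of 22 were higher and 2 lower (median 2.15), where 21.4% and 20.6% were (median 0.09). The highest were *Clu* (4.31), *Mt2* (4.21) and *S1pr1* (3.75) in XN4 and *Clu* (4.62), *Aldh1l1* (4.36) and *Apoe* (3.64) in XN1, and among the highest in CN4 were *S1pr1* (4.27) and *Atp1b2* (3.70). *Clu*, *Mt2* and *Apoe*, which encode clusterin, a metallothionein and apolipoprotein E, are also used by many other cell types. The KN1 shares of *Clu*, *S1pr1* and *Aldh1l1*, at 0.252%, 0.352% and 0.503% of cells, are of background size, as are those of *Mt3* in XN4 (0.382%) and *Fgfr3* in XN1 (0.794%), and the size of these ratios is not read. *Mt3*, *Slc4a4* and *Fgfr3*, which encode the neural metallothionein, a bicarbonate transporter and a growth factor receptor, were the 3 lowest in every comparison against KN1, at -7.68, -4.64 and -4.35 in XN4, -2.77, -1.22 and -5.16 in XN1, and -1.99, -0.64 and -1.88 in CN4. XN4 did not list 9 of the 26, among them the defining water channel gene *Aqp4*, which KN1 did not list either. KN1 did list 6 of these 9, *Bcan*, *Ncan*, *Mlc1*, *Gpr37l1*, *Slc6a11* and *Hepacam*, and none of them could be counted as lower in XN4, although *Bcan*, a brain proteoglycan gene, was in 53.2% of KN1 cells. Among genes in at least 1% of the cells of both lines, 7 of 12 were higher and 2 lower in XN4, 9 of 15 and 2 in XN1, and 9 of 16 and 2 in CN4, beside the shares of all genes given above for that minimum.

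Between the XAV lines, 2 of 21 testable progenitor genes were at least 2-fold higher in XN4 and 13 lower (median -1.64), where 17.5% and 13.8% of all genes were (median 0.12). The lowest were *Gpm6a* (-10.98), *Sox2* (-7.93) and *Pax6* (-6.80), and the highest *Zeb2* (1.21), *Mfge8* (1.15) and *Hopx* (0.65). The XN4 shares of the 3 lowest genes, and below those of *Aldh1l1*, *Mt3* and *Serpina3n*, are of background size, as is the XN1 share of *Fgfr3*. Among genes in at least 1% of the cells of both lines, 2 of 18 progenitor genes were higher and 10 lower, where 14.2% and 11.5% of all genes were. XN1 lists 5 progenitor and 8 astrocyte genes that XN4 does not, and none of them could be counted as lower in XN4. Of the astrocyte genes 2 of 16 were higher and 6 lower (median -0.56), where 17.5% and 13.8% of all genes were. They ran from *Gja1* (1.57), *Mt2* (1.27) and *Fgfr3* (0.82) down to *Aldh1l1* (-5.33), *Mt3* (-4.91) and *Slc4a4* (-3.42). The reactive astrocyte list, whose genes are also used by fibroblasts and other stressed cells, had 7 of 10 higher and 1 lower (median 1.86), where 17.5% and 13.8% of all genes were. *S100a6* (6.51), *Osmr* (4.19) and *S100a10* (3.17) led, and *Serpina3n* was lowest (-5.02), followed by *Timp1* and *Cd44* (both -0.81). In at least 1% of the cells of both lines, 2 of 13 astrocyte genes were higher and 4 lower, and 6 of 8 reactive genes higher and none lower. Against KN1 only 3 of these 10 could be compared, *S100a6*, *S100a10* and *Cd44*, and all 3 were higher in XN4, at 8.11, 2.15 and 1.18, the first against a KN1 share of 0.302% of cells, which is of background size, where 22.3% of all genes were higher. KN1 does not list the other 7, which could not count. In XN1 2 were higher and *S100a10* was lower (-1.02), where 23% and 23.8% of all genes were, and in CN4 2 were higher, where 21.4% were, with *S100a10* at 0.58. With at least 1% of the cells of both lines, 2 of 2 were higher in XN4, where 18.4% of all genes were. Then 1 of 2 was higher and 1 lower in XN1, where 20.1% and 23.1% were. In CN4 1 of 2 was higher and none lower, where 19.2% and 20.2% were.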

How the data were processed

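Single cells of 4 mouse NSC lines were captured in BD Rhapsody cartridges after storage in CellCover, with 1 library for each line. The deposited reads-per-cell tables of XN4, XN1 and CN4 hold raw counts of reads per gene and cell. Per the file headers they were made by the authors with the BD Rhapsody WTA pipeline 1.12.1 on GRCm38 with GENCODE M19, intronic reads included; a pipeline version for KN1 is not given in the sources used here. The deposited normalized tables of all 4 lines hold natural log (ln) values of 1 plus reads per 10000, made by the authors with Seurat 4.3.0 after ribosomal protein and mitochondrial genes were removed, and leave out rare genes. These were turned back into reads, and 100% of the values were whole within 0.01.

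Levels carry exact Poisson and shares exact Clopper-Pearson 95% intervals. Depth was matched by thinning cells to 3200 reads. No cell was removed as a doublet. Lines were compared by a fixed 2-fold rule without a test, since n is 1 library per line. Coordinates are from GENCODE M21 on GRCm38 and promoters from RefSeq GRCm38.p6; annotations of M19 and M21 may differ, and whether counting used strand is not given in the sources used here, so reads of overlapping antisense genes cannot be told apart. The 10 genes and all lists were chosen with earlier results of these data known. From the lists, the 3 highest and 3 lowest ratios of each comparison were named, except that 1 gene of the astrocyte list is not reported here by name, relatives were named beside their member, and followers were the 3 highest r values of a member where r was at least 0.2. *Nes* followers below that limit, *Sox2*, *Col3a1* and other cell type markers as label checks, and 7 astrocyte genes that XN4 does not list were named outside this rule, after their values were seen. Python 3.11.15, numpy 2.4.6, scipy 1.17.1, pandas 2.3.3 and scanpy 1.11.5 were used, and the rules were tested on simulated data.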

Additional observations from a re-analysis of the deposited data

Results flagged for a closer look

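*Slc1a2* stood out because the XAV lines lay on opposite sides of KN1, with a log2 ratio of levels of -2.59 in XN4 and 3.72 in XN1. It also stood out because its level in dividing over other cells had opposite directions, with log2 ratios of 1.32 in KN1, -1.03 in XN1 and -0.87 in CN4. Neither difference was tested, since each line is 1 library. The KN1 and XN4 values rest on 264 and 66 reads, at shares of cells of background size, and the KN1 value fell to 0.75 in unthinned cells and to 0.21 when all 3 dividing genes were required.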

How the results depend on the processing

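No paired analysis was possible because each line is 1 library. The 21 member ratios past 2-fold all kept their direction under the alternatives in which they were tested (18 of them when both lines had to reach 1% of cells), and all stayed past 2-fold except *Slc1a3* (-0.82) and *Ptprz1* (-0.24) in XN1 against KN1 when natural-log values were averaged, and *Ptprz1* there without the 5% deepest cells. Another fold or another minimum share of cells leaves a ratio as it was, so those alternatives could not change a direction. Averaged natural-log values also brought 3 further ratios past 2-fold, *Glul* in XN1 and *Aldoc* in CN4 against KN1 and *Vim* in XN4 against XN1. Of the 10 marker genes, those lower in XN1 against KN1 numbered 2, of which 0 remained with averaged natural-log values, 1 without the deepest cells and 0 at a fold of 3, while 1 marker gene was lower in CN4 against KN1 at a fold of 1.5 and 0 were higher in XN4 against KN1 at a fold of 3. Counts over all genes with averaged natural-log values were 6286 higher and 1241 lower (XN4 against KN1), 5913 and 1230 (XN1) and 6756 and 952 (CN4). With a minimum of 5% of cells, the lower counts against KN1 were 1595, 1789 and 1526. At a fold of 3 the higher and lower counts, in the same order, were 1427 and 1636, 1354 and 1699, 1137 and 1437, and 1140 and 1064 (XN4 against XN1). At a fold of 1.5, 3938 genes were higher in CN4 against KN1, and 3654 were higher and 2673 lower in XN4 against XN1. Removing the 6% of cells most like doublets by score moved none of these counts by over 1.5 times. In dividing cells, *Slc1a2* in XN1 fell short of 2-fold when unthinned, and *Aldoc* and *Glul* in CN4 passed it with all 3 dividing genes required. *S100b* in XN4 against XN1 was -4.52 in the reads-per-cell tables against -3.90. No co-capture ratio left its interval with 5 strata or with strata of captured genes, and 10 of 113 did when 2 reads were required, *Nes* with *Gfap* in CN4 falling to 0.52. The cause of these shifts was not tested.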
